A study of Mus musculus with 9 samples.

Results

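The report covers 5-hydroxymethylcytosine (5hmC) around the 4 mouse Hox gene clusters, Hoxa, Hoxb, Hoxc and Hoxd. The members are the deposited 5hmC regions that lie fully within a window of 5 Mb set around each cluster, in mouse build mm9: chromosome 6 from 49650000 to 54650000 for Hoxa, chromosome 11 from 93650000 to 98650000 for Hoxb, chromosome 15 from 100300000 to 105300000 for Hoxc and chromosome 2 from 72050000 to 77050000 for Hoxd. The windows hold 3283 of 218138 regions, 754 of 51286 in the control list and 2529 of 166852 in the MLL-AF9 list. The Hoxc window runs past the last region of its chromosome, which ends at 103365485, so that 3.07 Mb of it could be measured. The windows were set by position alone. The place of single Hox genes within them was not analysed here, since no mm9 annotation was used.

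The cells were mononuclear cells from bone marrow, from the mouse strain B6.SJL (CD45.1). Control cells carried the empty retroviral vectors MSCVneo and MSCVpuro. MLL-AF9 cells carried MSCVneo with the MLL-AF9 fusion, together with the same empty MSCVpuro, so both groups had received both vectors and, by their labels, differed in the fusion. No age, no time after transduction and no statement on pooled or separate animals is given by the labels. 5hmC-enriched DNA was sequenced in 1 library per group, and polyA RNA in 3 libraries per group, for which 1 pooled value per gene and group was deposited. With 1 library per group no test of 5hmC was possible. The intervals below cover counting error only, and because neighbouring regions cluster they are too narrow even for that.

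Hox genes encode homeodomain transcription factors that set position along the body axis in the embryo. In blood, Hoxa genes and some Hoxb genes are active in stem and early progenitor cells and are shut off as the cells mature. MLL is a histone methyltransferase that keeps Hox genes active, and its leukemic fusions are known to hold Hoxa genes on. 5hmC is made from methylated cytosine by the TET dioxygenases, mostly at CpG dinucleotides, and is often found over active gene bodies and enhancers, while the CpG-rich starts of genes tend to carry little of it.

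The CpG sites that could carry the mark differ widely between Hox genes. The stretches of 250 bases before the start of 3 of them are shown to make this visible, with each CpG in capitals, 5′ to 3′ on the strand of the gene. Hoxa5 and Hoxa9 are genes whose RNA was higher in MLL-AF9 cells, and Hoxb4 is the Hox gene outside the Hoxa cluster with the highest RNA level.
Hoxa5: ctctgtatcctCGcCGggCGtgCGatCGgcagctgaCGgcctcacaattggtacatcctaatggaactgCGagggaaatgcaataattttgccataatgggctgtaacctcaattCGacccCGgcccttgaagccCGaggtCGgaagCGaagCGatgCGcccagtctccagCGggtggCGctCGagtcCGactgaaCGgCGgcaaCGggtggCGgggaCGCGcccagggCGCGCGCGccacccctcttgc
Hoxa9: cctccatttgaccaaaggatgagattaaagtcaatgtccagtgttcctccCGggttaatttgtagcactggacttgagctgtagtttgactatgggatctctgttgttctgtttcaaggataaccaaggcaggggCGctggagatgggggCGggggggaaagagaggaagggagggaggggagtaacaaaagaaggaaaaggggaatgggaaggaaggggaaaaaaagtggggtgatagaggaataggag
Hoxb4: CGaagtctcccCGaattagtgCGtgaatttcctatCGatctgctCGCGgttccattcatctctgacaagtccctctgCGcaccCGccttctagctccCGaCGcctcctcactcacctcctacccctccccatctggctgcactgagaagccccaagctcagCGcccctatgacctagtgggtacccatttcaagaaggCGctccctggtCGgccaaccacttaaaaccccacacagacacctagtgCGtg
These sequences are from RefSeq, build GRCm38.p6, on the minus strand for Hoxa5 and Hoxa9 and on the plus strand for Hoxb4, and were not placed on the mm9 regions. The Hoxa5 stretch holds 28 CpG, a number that 7.61% of all 32851 promoters in the table reach. The Hoxa9 stretch holds 3, which 71.0% reach, and the Hoxb4 stretch 14, which 29.4% reach. A promoter entry was found for 22 of the 39 Hox genes, with 2 to 35 CpG and a median of 12.5, compared with a median of 6 over all promoters. Hoxa promoters had a median of 15.5 CpG and Hoxd promoters of 12.5. These are counts of sites and not measurements of 5hmC.

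The first comparison asked how many 5hmC regions each library had around each cluster. The Hoxa window had the most regions in MLL-AF9 cells and the largest ratio between the libraries. It held 166 control and 853 MLL-AF9 regions, a ratio of 5.14 (95% interval 4.35 to 6.11). The Hoxc window held 144 and 470, a ratio of 3.26 (2.70 to 3.96), and the Hoxd window 162 and 495, a ratio of 3.06 (2.55 to 3.67). The Hoxb window held 282 and 711, a ratio of 2.52 (2.19 to 2.90). Over the whole lists the ratio was 3.25. Thus the Hoxa interval lay above that value and above the intervals of the other windows, the Hoxb interval lay below the whole-list value, and the Hoxc and Hoxd intervals held it. The Hoxb interval still overlapped those of Hoxc and Hoxd, and in the central 2 Mb of its window the Hoxb ratio was 3.10 (2.43 to 3.98), an interval that holds the whole-list value.

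**Figure D1:**
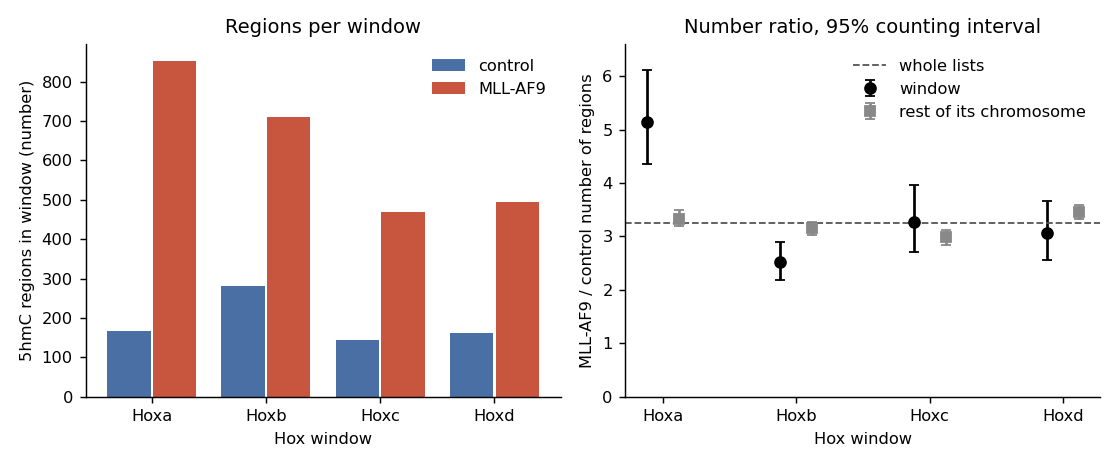
Left, number of 5hmC regions in each Hox window in the control and MLL-AF9 lists (bars, 1 library each). Right, ratio of the numbers in the window (circles) and in the rest of the same chromosome (squares), with 95% counting intervals, and the ratio of 3.25 over the whole lists (dashed); Hoxa lies above and Hoxb below the rest of its chromosome.

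The rest of each chromosome served as a nearer background. On chromosome 6 outside the Hoxa window the ratio was 3.33 (3.19 to 3.49), below the interval of the window. On chromosome 11 outside the Hoxb window it was 3.15 (3.03 to 3.27), above that of the window. Chromosome 15 outside the Hoxc window had 2.98 (2.85 to 3.13) and chromosome 2 outside the Hoxd window 3.46 (3.33 to 3.59), both within the range of their windows. Stretches of 5 Mb vary by themselves: over 386 autosomal tiles of that length with at least 20 control regions, the ratio had a median of 3.32, and 5% of the tiles lay below 2.33 and 5% above 5.72. Of these tiles 38, or 9.84%, had a higher ratio than the Hoxa window, and 48 had a lower ratio than the Hoxb window. The Hoxa and Hoxb windows were therefore toward either end of this range, but not outside it.

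**Figure D2:**
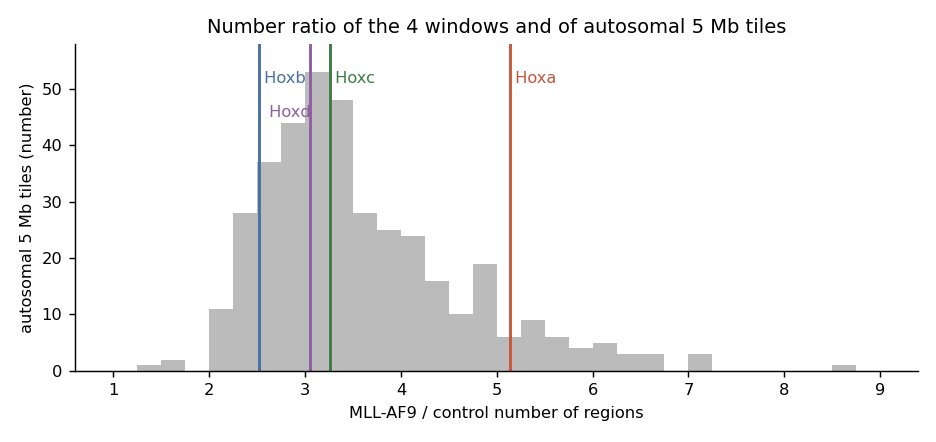
Ratio of MLL-AF9 to control region numbers (x axis) in 386 autosomal tiles of 5 Mb (grey, number of tiles on the y axis) with the 4 Hox windows as lines. Hoxa at 5.14 lies in the upper tail, Hoxb at 2.52 in the lower part, and Hoxc and Hoxd near the middle.

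All 4 windows held more regions per Mb than the genome as a whole. Control cells had 33.2 regions per Mb around Hoxa, 56.4 around Hoxb, 47.0 around Hoxc and 32.4 around Hoxd, compared with 19.4 over the genome as far as the last region of each chromosome. MLL-AF9 cells had 171, 142, 153 and 99.0 per Mb in the same order, compared with 63.3 over the genome. Of 485 autosomal tiles of 5 Mb, 95.9% held fewer MLL-AF9 regions than the Hoxa window, 90.5% fewer than Hoxb and 74.6% fewer than Hoxd. For control regions these shares were 78.4%, 94.2% and 77.5%. Hoxc is left out here, since less than 5 Mb of its window could be measured. The ratios of covered length had the same order as the ratios of numbers. The covered length went from 93.7 to 425 kb around Hoxa, 4.54 times as much, from 96.9 to 263 kb around Hoxc, 2.72 times, from 102 to 252 kb around Hoxd, 2.47 times, and from 200 to 379 kb around Hoxb, 1.90 times. The number of reads per library is unknown, and its part in these ratios was not tested. With the control list's median score as a common floor in both lists, the ratio was 3.25 around Hoxa, 1.52 around Hoxb, 2.17 around Hoxc and 2.20 around Hoxd, against 2.03 over the whole lists, although scores may not be comparable between libraries.

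RNA markers of several cell types differed between the groups, and fewer cells of a type cannot be told apart from less RNA per cell in such bulk samples. In the authors' deposited RNA table all 6 late granulocyte markers were lower in MLL-AF9 cells at a q-value under 0.05, with a summed level of 4927 against 55807 FPKM in control. All 5 B cell markers (33.6 against 620 FPKM), all 5 T and NK cell markers (2.22 against 46.2 FPKM) and all 5 red cell markers (11.3 against 211 FPKM) in the authors' deposited table were lower too. Of 6 myeloid and progenitor markers Cd34 and Flt3 were higher. Kit, Mpo, Elane and Csf1r did not pass, with q-values of 0.597 to 0.989 in the authors' deposited table. No marker of any of these lists was at 0. As a background, 11538 genes averaged 1 FPKM or more, and under the same q limit 5.2% of them were lower and 5.13% higher. The part of these marker shifts in the 5hmC numbers was not tested.

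Along the windows the 2 libraries mostly followed each other, least of all around Hoxa. In bins of 100 kb the Spearman correlation between control and MLL-AF9 numbers was 0.89 over 31 bins around Hoxc, 0.86 over 50 around Hoxd, 0.76 over 50 around Hoxb and 0.55 over 50 around Hoxa. Bins of 1 window share their libraries and local CpG content, so this is a description. In control cells 29 of the 50 Hoxd bins were empty, compared with 13 for Hoxa, 9 for Hoxb and 11 of 31 for Hoxc. In MLL-AF9 cells 17 Hoxd bins, 6 Hoxa bins, 4 Hoxb bins and 2 Hoxc bins were empty. The densest Hoxa bin of MLL-AF9 cells, 1800 to 1900 kb before the centre in chromosome direction, held 62 regions. The densest control bin of any window held 28 and lay 1200 to 1300 kb before the Hoxd centre, where MLL-AF9 cells also had their densest Hoxd bin with 44.

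**Figure D3:**
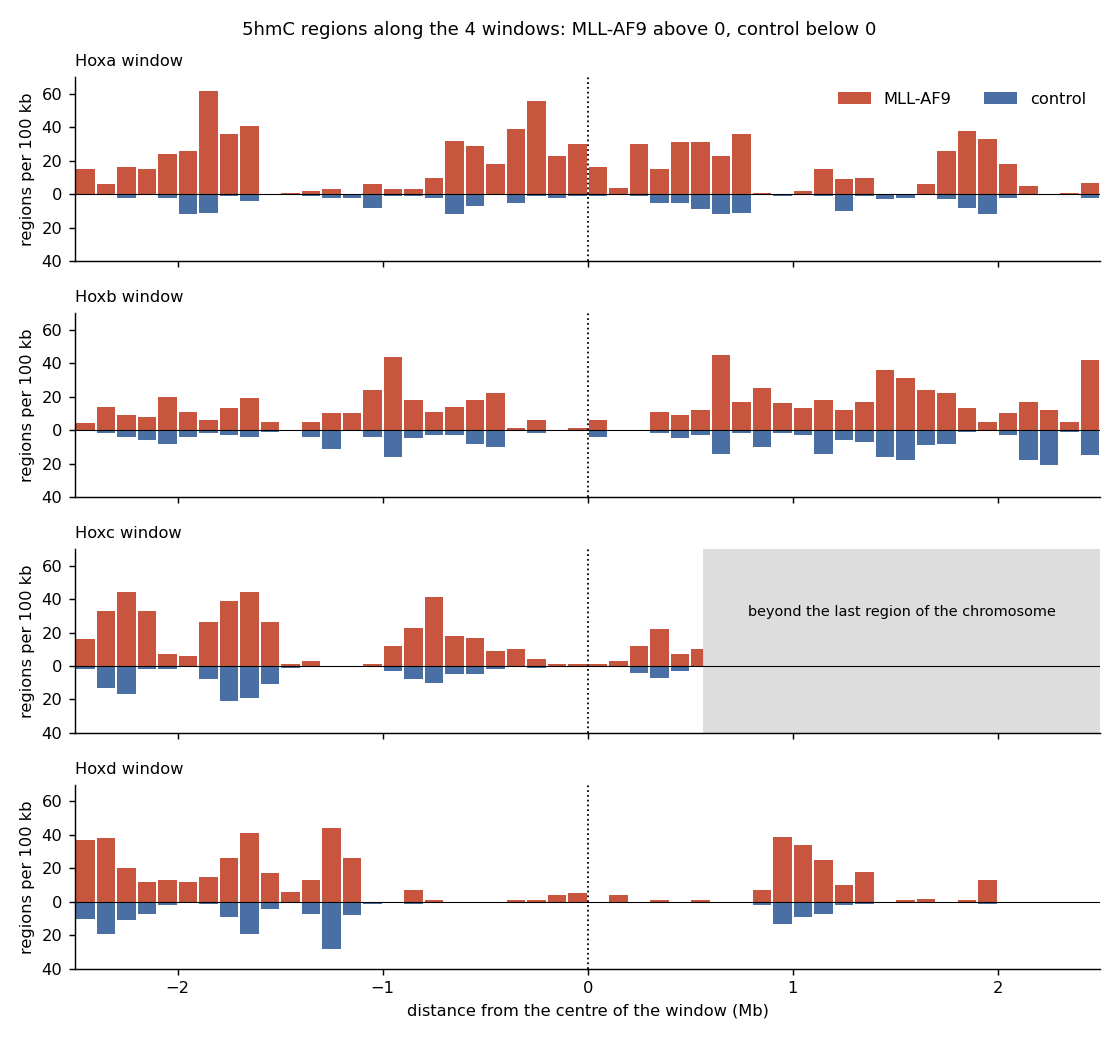
Number of 5hmC regions per 100 kb (y axis) against the distance from the centre of each window in Mb (x axis), MLL-AF9 above and control below 0; the grey part of the Hoxc panel lies beyond the last region of the chromosome. Around the centre (dotted) MLL-AF9 regions are dense for Hoxa and sparse for Hoxb, Hoxc and Hoxd. Control regions are sparse there in all 4, as in most autosomal tiles of 200 kb.

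The second comparison looked at the middle of each window; where the genes lie in it was not checked. Control cells had few regions there in all 4 windows, and MLL-AF9 cells had many around Hoxa alone. Within 100 kb on either side of the centre, chromosome 6 from 52050001 to 52250000 held 2 control and 46 MLL-AF9 regions, a ratio of 23.0 with a wide interval of 6.02 to 196. The same stretch held 4 and 7 regions for Hoxb (chromosome 11, 96050001 to 96250000), a ratio of 1.75 (0.445 to 8.15). It held 0 and 2 for Hoxc (chromosome 15, 102700001 to 102900000), for which no ratio is given. It held 0 and 5 for Hoxd (chromosome 2, 74450001 to 74650000). With the control count of 0 set to a floor of 3 regions per library, this was at least 1.67-fold more. That value rests on the floor and leaves out counting error. MLL-AF9 regions covered 15.8% of the Hoxa stretch, 1.87% of the Hoxb, 0.419% of the Hoxc and 0.666% of the Hoxd stretch. Control regions covered 0.494% for Hoxa and 1.15% for Hoxb.

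So dense a stretch was common in the MLL-AF9 list, but seldom where control had so few regions. Of 12330 autosomal tiles of 200 kb, 1152, or 9.34%, held at least 46 MLL-AF9 regions. Of the 8426 tiles with at most 2 control regions, 8 did, or 0.0949%. None of them overlapped the Hoxa centre, so no tile of the grid there met both limits. The limits of 2 and 46 were the counts of the Hoxa stretch itself. Tiles were laid from the start of each chromosome, whereas this stretch was centred on its window, so the share depends on placement. In such control-poor tiles the median number of MLL-AF9 regions was 0 and the 95th percentile 16. The numbers at the other clusters were ordinary for the list: 40.9% of all tiles held at least the 7 MLL-AF9 regions of the Hoxb centre, 51.3% the 2 of Hoxc and 44.3% the 5 of Hoxd. The comparison with control-poor tiles was chosen after the values were seen.

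The difference in the Hoxa window reached beyond the central 200 kb. In the central 1 Mb there were 21 control and 262 MLL-AF9 regions, a ratio of 12.5 (7.99 to 20.5). Of 1165 autosomal tiles of 1 Mb with at least 10 control regions, 1, or 0.0858%, had a ratio as high. It did not overlap the Hoxa centre, so no tile of the grid over this centre had such a ratio. Tiles were laid from the start of each chromosome, whereas the Hoxa stretch was centred on its window. The share therefore depends on placement and is a description. The central 1 Mb became a separate result for Hoxa only after its values were seen. The median tile had 3.21 and the 95th percentile was 6.63. Without the 200 kb around the centre the ratio was still 11.4 (7.11 to 19.3), from 19 and 216 regions. Farther than 500 kb from the centre it was 4.08 (3.39 to 4.92), from 145 and 591 regions. In the same central 1 Mb the ratio was 2.43 (1.47 to 4.15) for Hoxb, from 23 and 56 regions, and 4.12 (2.40 to 7.46) for Hoxc, from 17 and 70. For Hoxd there were 0 and 16 regions, at least 5.33-fold more with the floor of 3, which again leaves out counting error.

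The MLL-AF9 regions at the Hoxa centre formed a run. Joined wherever the gap to the next was at most 5 kb, 30 regions lay between 52109123 and 52161152 on chromosome 6, from 40.9 kb before to 11.2 kb after the centre, and covered 44.2% of these 52.0 kb. The control list had 2 regions there. Runs of at least 30 regions were not rare, with 519 among 46512 runs of the MLL-AF9 list, or 1.12%, but those runs held a median of 17 control regions, and 11 of the 519, this run among them, held no more than 2. The 30 regions had scores from 91 to 900 with a median of 284.5, at percentile 74.0 of the list, and 22 of them lay above the list's median. Their median width was 638 bp, with a range of 260 to 2164 bp, and 9 of the 30 were among the widest 10% of the list.

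Most of the high scores of the run lay near its end. The region from 52150026 to 52151185, 0.026 kb from the centre, had the highest score of the run at 900. It was followed by regions from 52152577 to 52153652 with a score of 841, from 52153797 to 52155960 with 692, from 52156029 to 52156884 with 654 and from 52158075 to 52160021 with 458. Just before the centre a region from 52144320 to 52145251 had a score of 823, and near the start of the run another, from 52110484 to 52111565, had 800. The region from 52153797, 2164 bp wide, was the widest of the Hoxa window in either list. After 52161152 no MLL-AF9 region followed for 24.0 kb, up to 52185130, and 9 regions with scores of 93 to 264 lay in the remainder of the central stretch.

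Both control regions at the Hoxa centre overlapped a wider MLL-AF9 region, 1 of them wholly. The control region from 52158145 to 52158623, 479 bp wide with a score of 177, lay wholly inside the MLL-AF9 region of 1947 bp that starts at 52158075. The other, from 52140799 to 52141307 with a score of 224, shared 319 bp with an MLL-AF9 region from 52139717 to 52141117 that was 1401 bp wide. Both control scores lay below the median of 264 of the control list, at percentiles 22.5 and 36.4.

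**Figure D4:**
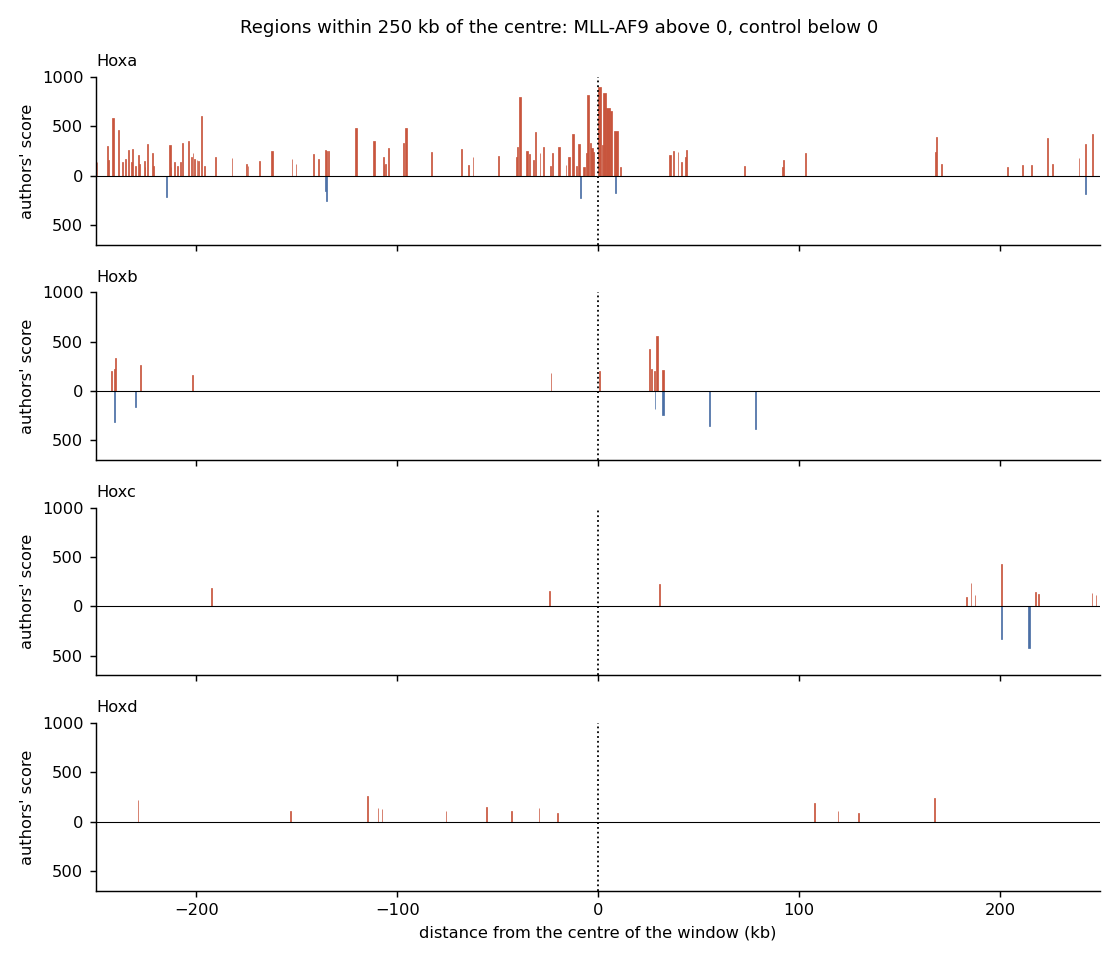
Regions within 250 kb of the centre of each window, drawn to scale in width (x axis, kb) with the authors' score as height (y axis), MLL-AF9 above and control below 0; scores are comparable within a list only. Hoxa shows the run of 30 MLL-AF9 regions with 2 control regions, whereas the other 3 clusters have few MLL-AF9 regions near the centre.

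At the Hoxb centre the regions lay in a small group. Of the 7 MLL-AF9 regions 5 lay between 96175417 and 96182522, and the highest score among them was 560, at 96178812 to 96179709. Of the 4 control regions, those at 96178035 and 96181973 overlapped MLL-AF9 regions, while those at 96205224 and 96228061, with scores of 352 and 384, did not. MLL-AF9 cells had no region from 96182523 to 96503073, 321 kb and the longest such stretch of their Hoxb window. Control cells had no region from 96228611 to 96506009, 277 kb, so both libraries shared most of this empty stretch.

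The Hoxc and Hoxd centres were empty in control cells. No control region lay from 102500400 to 103000481 around the Hoxc centre, a stretch of 500.1 kb, in which MLL-AF9 cells had 9 regions with scores of 93 to 570 and a median of 190. Around the Hoxd centre no control region lay from 73657155 to 75441513, 1784 kb, the longest stretch without a region in any of the 4 windows. MLL-AF9 cells had 23 regions in it, with a median score of 153, at percentile 26.2 of their list, a highest score of 363 and a median width of 330 bp. These were narrow and low-scoring regions, compared with 441 bp and 215 over the whole MLL-AF9 list. The 5 nearest to the Hoxd centre had scores of 88 to 153. For the Hoxa window the longest stretch without a control region, 427 kb from 54205537 to 54632438, lay 2056 kb away from the centre.

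The third comparison asked how many regions the libraries shared. Of control regions 81.6% shared 1 bp or more with an MLL-AF9 region over the whole lists. The share was 87.5% around Hoxc (126 of 144, 95% Wilson interval 81.1 to 91.9) and 86.4% around Hoxd (140 of 162, 80.3 to 90.9). It was 77.7% around Hoxa (129 of 166, 70.8 to 83.4) and 70.9% around Hoxb (200 of 282, 65.4 to 75.9). Only the Hoxb interval left out the value of the whole list, so that the window with the most control regions kept the smallest share of them. Where at least 50% of a control region had to be covered, the share was 65.2% around Hoxb and 74.7% around Hoxa. No whole-list share was computed under that rule.

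Seen from the MLL-AF9 list, the Hoxa window had the smallest shared part. This share is tied to the numbers, since 853 MLL-AF9 regions faced 166 control regions in that window. It therefore largely restates the number ratio of 5.14. There 134 of 853 MLL-AF9 regions, 15.7% (13.4 to 18.3), overlapped a control region, compared with 26.2% of the whole list. The share was 30.5% (27.2 to 34.0) around Hoxb, 29.3% (25.5 to 33.4) around Hoxd and 27.0% (23.2 to 31.2) around Hoxc. The MLL-AF9 regions without a counterpart numbered 719 around Hoxa, 494 around Hoxb, 350 around Hoxd and 343 around Hoxc. Of those 719, 49.7% (46.0 to 53.3) lay within 10 kb of a control region, compared with 67.0% around Hoxb, 62.4% around Hoxc, 68.3% around Hoxd and 58.6% over the whole list. The median distance to the nearest control region was 10.2 kb around Hoxa and 5.04, 5.38 and 3.89 kb around Hoxb, Hoxc and Hoxd.

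Control regions without a counterpart numbered 37 of 166 around Hoxa, 82 of 282 around Hoxb, 18 of 144 around Hoxc and 22 of 162 around Hoxd. Over the whole control list they numbered 9451 of 51286. All 18 around Hoxc lay within 10 kb of an MLL-AF9 region, as did 20 of 22 around Hoxd, 67 of 82 around Hoxb and 29 of 37 around Hoxa. Over the whole control list 8078 of 9451 such regions did, or 85.5%. That value lay within the Wilson interval of every window: 62.8 to 88.6 for Hoxa, 72.0 to 88.6 for Hoxb, 82.4 to 100 for Hoxc and 72.2 to 97.5 for Hoxd. Some control regions overlapped more than 1 MLL-AF9 region, 27 around Hoxb (9.57%), 13 around Hoxd (8.02%), 9 around Hoxc (6.25%) and 6 around Hoxa (3.61%), compared with 6.71% of the control list.

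Control regions had the larger median width in every window. The median width was 497.5 bp in control (95% interval 472 to 552) and 429 bp in MLL-AF9 cells (415 to 440) around Hoxa. Around Hoxb it was 614.5 bp (582 to 647) and 469 bp (448 to 487), around Hoxc 602.5 bp (566 to 660) and 481.5 bp (449 to 501), and around Hoxd 545 bp (520 to 598) and 438 bp (418 to 456). The whole lists had 571 and 441 bp, values that lie outside the intervals of both Hoxa and both Hoxb medians and of the MLL-AF9 median around Hoxc. Control regions around Hoxa had the lowest median of the 4 windows and those around Hoxb the highest, and the intervals of these windows do not overlap, whereas those of Hoxa and Hoxd do. Regions with a counterpart had median widths, control first, of 518 and 554 bp around Hoxa, 622.5 and 587 bp around Hoxb, 602.5 and 657 bp around Hoxc, and 568.5 and 567 bp around Hoxd. MLL-AF9 regions without a counterpart were narrower in all windows, with medians from 400 to 430.5 bp. The same held over the whole MLL-AF9 list, with medians of 410 bp without and 574 bp with a counterpart.

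The authors' score was read within each list alone. Its median in control was 255 around Hoxa, 269 around Hoxb, 267 around Hoxc and 252 around Hoxd, compared with 264 over the control list. In the MLL-AF9 list it was 208, 223, 224.5 and 217, compared with 215. No window had a median that lay beyond percentile 45.9 or 53.7 of its list. Around Hoxa 5.42% of control regions and 9.26% of MLL-AF9 regions were in the top 10% of their list by score. Score went with width: their Spearman correlation over the regions of a window was 0.60 to 0.68 in control and 0.68 to 0.72 in MLL-AF9 cells, with 144 to 282 and 470 to 853 regions, which share a library.

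The highest-scoring region of the entire MLL-AF9 list lay in the Hoxc window. It spanned 100636453 to 100640521 on chromosome 15, 2162 kb from the centre, was 4069 bp wide and had a score of 3805. The control list had a single region of 603 bp inside it, from 100638444 to 100639046, with a score of 324 at percentile 64.9. The next in this window, from 100492921 to 100495204 with a score of 1734, also overlapped a control region of lower rank, with a score of 383 at percentile 73.8.

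Several high-scoring control regions overlapped more than 1 MLL-AF9 region. The highest-scoring control region of the 4 windows, from 97677100 to 97679779 in the Hoxb window, had a score of 2198 and a width of 2680 bp. It overlapped 2 MLL-AF9 regions of 1979 and 752 bp with scores of 682 and 245. In the Hoxd window the control region from 73315057 to 73317223, with a score of 2017, overlapped 3 MLL-AF9 regions of 775, 547 and 482 bp, none scoring above 292. In the Hoxc window the control region from 101181212 to 101182951, with a score of 1495, overlapped 2 of 657 and 646 bp. The top control region of the Hoxa window, from 54025396 to 54026677 with a score of 978, stayed whole inside an MLL-AF9 region of 1817 bp that had the top score of that window, 1082.

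Some strong regions had no counterpart. In control these were led by 97341741 to 97344091 in the Hoxb window, with a score of 1514 and a width of 2351 bp, although an MLL-AF9 region lay 1.04 kb away. The Hoxa region from 53659102 to 53660206, with a score of 797, had its nearest MLL-AF9 region 91.5 kb away, within the longest stretch without MLL-AF9 regions of that window, from 53539928 to 53751749. In MLL-AF9 cells the leading ones were 101979195 to 101980610 in the Hoxc window with a score of 1198, 95531913 to 95533152 in the Hoxb window with 1019, 54006907 to 54008195 in the Hoxa window with 995 and 75596892 to 75598191 in the Hoxd window with 994. Their nearest control regions lay 0.724, 4.04, 7.75 and 18.0 kb away. The second in the Hoxa window was the region of score 900 at the centre, whose nearest control region lay 6.96 kb away.

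The RNA of the clusters was set beside these numbers. Of 11 Hoxa genes in the authors' deposited table, 9 were higher in MLL-AF9 cells at a q-value under 0.05 with a mean of at least 1 FPKM, compared with 5.13% of the 11538 genes that reach this mean. The Hoxa genes reached it through their MLL-AF9 values alone, so their count is a description. Of the 28 genes of the other 3 clusters only Hoxb4 reached the mean, so the others could not be called, and it was not called (p = 0.252 before adjustment, in the authors' deposited table). None of the 10 Hox genes that reached the mean was lower, where 5.2% of all tested genes were, and nothing is read from this, since 9 of them reached it through their MLL-AF9 values. Summed over the members in the authors' deposited table, the Hoxa cluster stood at 245 against 2.48 FPKM, the Hoxb cluster at 2.98 against 5.66 FPKM, and the Hoxc cluster at 0.165 against 0.103 FPKM. The Hoxd cluster stood at 0.0400 FPKM in MLL-AF9 cells, with all 9 genes listed at 0 in control.

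Within the Hoxa cluster the levels differed along the genes. In the authors' deposited table Hoxa9, a homeodomain factor that acts with Meis1 in leukemia, was at 65.9 against 0.876 FPKM, Hoxa10 at 51.3 against 0.235 FPKM and Hoxa5 at 45.8 against 0.503 FPKM. Hoxa6, at 24.1 against 0.103 FPKM, and Hoxa7, at 22.2 against 0.394 FPKM, came next in the authors' deposited table. Hoxa3 was at 15.6, Hoxa11 at 9.04, Hoxa2 at 6.09 and Hoxa4 at 4.39 FPKM in MLL-AF9 cells in the authors' deposited table, against 0.0125 to 0.135 FPKM in control. Hoxa13 stood at 0.0288 FPKM in MLL-AF9 cells and was listed at 0 in control in the authors' deposited table. Outside Hoxa, Hoxb4 stood at 1.97 against 3.76 FPKM (q = 0.571) and Hoxb3 at 0.488 against 1.06 FPKM (q = 0.523), as listed in the authors' deposited table. The antisense transcript Hoxa11as was listed at 2.50 and 0 FPKM, and the unstranded kit cannot tell it from Hoxa11.

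**Figure D5:**
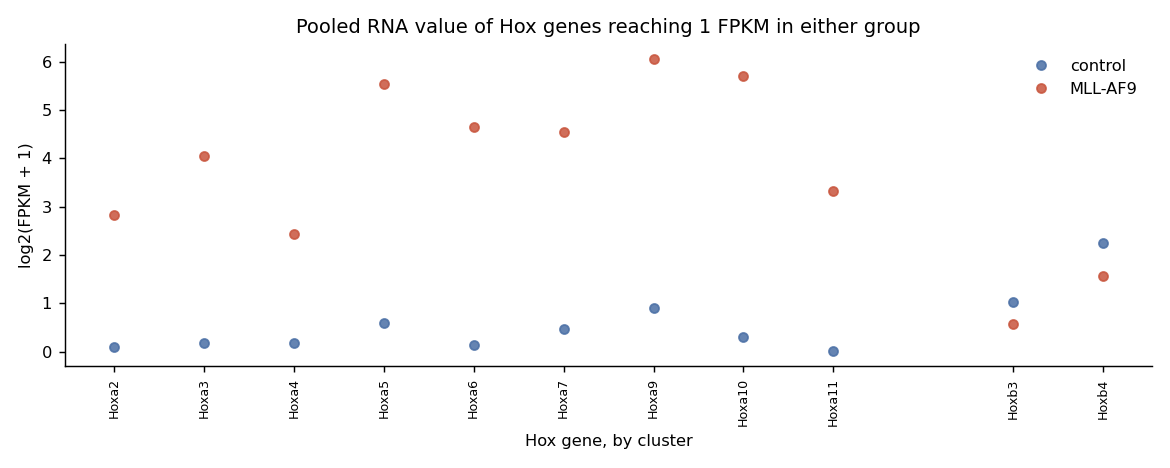
Pooled RNA value of the 11 Hox genes that reach 1 FPKM in either group, on the log2(FPKM + 1) scale (y axis), by cluster (x axis), from the authors' deposited table, 1 value per group with no error. The 9 Hoxa genes are higher in MLL-AF9 cells, whereas Hoxb3 and Hoxb4 do not exceed 3.76 FPKM in either group.

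Of the genes next to the clusters, 4 were called. The 5 protein-coding genes on either side of each cluster, in RefSeq order, gave 40 neighbours, of which 36 were matched and 28 had a mean of at least 1 FPKM. Of these 28, 1 was higher and 3 were lower in the authors' deposited table, where 10.3% of all genes were called in either direction, so that 4 of 28 is near the background. No neighbour of Hoxa was called higher: Skap2, an adaptor protein, stood at 266 against 152 FPKM (q = 0.421) and Tax1bp1, an autophagy receptor, at 195 against 83.5 FPKM (q = 0.175), as listed in the authors' deposited table. Hnrnpa2b1, an RNA-binding protein, stood at 680 against 478 FPKM, Cbx3, a heterochromatin protein, at 118 against 107 FPKM, and Hibadh, a mitochondrial enzyme of valine breakdown, at 29.7 against 26.3 FPKM in that authors' deposited table.

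The called neighbours lay at all 4 clusters, 1 at each. Snx10, a sorting nexin beside Hoxa, fell 1.85-fold to 22.8 FPKM (q = 0.0339), and Skap1, an adaptor of T cell receptor signalling beside Hoxb, fell 18.4-fold to 0.245 FPKM (q = 8.86e-05), values of the authors' deposited table. Nfe2l2, the regulator of the oxidative stress response beside Hoxd, fell 2.87-fold to 27.7 FPKM (q = 0.0373), as listed in the authors' deposited table. Atf7, a bZIP transcription factor beside Hoxc, rose 4.84-fold to 9.60 FPKM (q = 0.0201), as listed in the authors' deposited table. T and NK cell markers fell in the same comparison as Skap1, and their part in its fall was not tested. Other expressed neighbours did not pass, among them Nfe2, an erythroid and megakaryocyte factor, at 94.6 against 198 FPKM (q = 0.214) and Cbx5, a heterochromatin protein, at 43.4 against 17.1 FPKM (q = 0.0787), as listed in the authors' deposited table.

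The enzymes that make 5hmC were measured in the same RNA. Tet1 rose 4.60-fold to 1.76 FPKM (q = 0.00989) and Tet2 2.85-fold to 18.7 FPKM (q = 0.0350), and Tet3 stood at 17.5 against 9.31 FPKM (q = 0.306), as listed in the authors' deposited table. They act on the whole genome, and their share in any 1 window was not tested.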

How the data were processed

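5hmC-enriched DNA of 1 control and 1 MLL-AF9 library and polyA RNA of 3 libraries per group were used; the control input library was not analysed here. The design text states selective chemical labelling of 5hmC, whereas the labels name an antibody against 5-methylcytidine. The submitters' processing notes list mm9 and, in no stated role, TopHat 1.4.1, Cufflinks 1.3.0, MACS 1.4, Bowtie 0.17.2 and CASAVA 1.8.2; settings are not given. The deposited region lists hold a score per region, set by the authors and not explained in the files. The authors' table holds 1 pooled value per gene and group, taken as FPKM from its values and the tools, and the deposited p-value and q-value are the authors' own. Which of the 3 RNA libraries entered the pooled value is unknown, as the labels' protocol speaks of duplicates.

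Windows were read from the selection rule, and starts were converted to count from 1. An overlap needed 1 bp. Ratios of numbers have exact conditional binomial intervals, shares Wilson intervals and medians binomial order-statistic intervals, all at 95%. A gene was called where its deposited q-value was under 0.05 and its mean reached 1 FPKM, leaving out S100a9, which is listed at 0 in control. No test was computed anew. Named genes were Hox genes reaching 1 FPKM in either group, neighbours reaching 5 FPKM and the Tet genes. Named regions were, per window and library, the 2 highest-scoring with and without an overlap, the widest and the one nearest the centre. Other regions within 100 kb of a centre, and Hoxa13 and Hoxa11as, were added after their values were seen. One gene is not reported here. The members and lists were chosen with earlier results of these data known. The overlap and interval functions were tested on simulated regions. Python 3.11.15, numpy 2.4.6, pandas 2.3.3, scipy 1.17.1 and matplotlib 3.10.9 were used.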

Additional observations from a re-analysis of the deposited data

How the results depend on the processing

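Of 73 alternative values for the 15 results with an interval, 46 lay within the interval of the reported value and 27 did not. The count of called Hox genes, 9, was 10 without a filter on low values and 6 with a mean of at least 5 FPKM, and that of called neighbours, 4, was 4 and 3, all from the authors' deposited table. With the control list's median score as a floor in both lists, the number ratio was 3.25 around Hoxa, 1.52 around Hoxb, 2.17 around Hoxc and 2.20 around Hoxd. In the central 2 Mb it was 3.10 around Hoxb, 3.98 around Hoxc and 4.44 around Hoxd, and in the central 1 Mb 12.5 around Hoxa and 4.12 around Hoxc; the Hoxd window gave no ratio there, with 0 control regions. With regions within 500 bp merged first, the Hoxa ratio was 4.34. In the central 1 Mb of Hoxa, alternatives added after seeing the data gave 9.38 to 15.6, all within the interval.

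Above each list's own median score, the share of control regions with an overlap was 65.8% around Hoxa, 55.2% around Hoxb, 78.7% around Hoxc and 70.3% around Hoxd, and that of MLL-AF9 regions over all windows 19.3%. With 50% of a region covered, the control share around Hoxb was 65.2% and the MLL-AF9 share 22.5%. No whole-list share was computed under either of these 2 rules. The whole-list values of 81.6% and 26.2% rest on a looser rule and cannot be set beside these shares. In the central 2 Mb the control share was 84.4% around Hoxa, 77.5% around Hoxb and 93.8% around Hoxd, and the MLL-AF9 share 21.1%. The median control width was 552.5 bp in the central 2 Mb, 716 bp above the own median score and 608 bp after merging; for MLL-AF9 the latter values were 559 and 494.5 bp. The median log2 change of the 10 passing Hox genes in the authors' deposited table, 3.97 with a pseudocount of 1, was 6.09 with 0.1. Merged regions are wider than their parts, and a smaller pseudocount enlarges each log2 change, both by construction. The cause of the other shifts was not tested.

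No paired analysis was possible because each group has 1 5hmC library and the RNA values are pooled per group; leaving out a replicate was not possible for the same reason. Reads per library are unknown, so the difference in depth cannot be told apart from the difference between the groups.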
